A study of Mus musculus and Homo sapiens with 22 samples.

Results

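The 10 genes described here, Il6, Ahsg, Gpnmb, Mt1, Kif1c, Nnat, Serpinf1, Galnt2, Tmem145 and Elovl4, were chosen by their RPKM and read counts, which differed widely between N2A cells with a stable hairpin against nSR100 and N2A cells with a hairpin against GFP. They are 10 of the 22667 genes in each mouse file. Of these genes, 6 were higher and 4 were lower in the shnSR100 file than in the shGFP file. That contrast selected them, so it is given as a description with no test, and the question asked of the data was how the same genes behaved in the other libraries.

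N2A is a mouse neuroblastoma cell line. The shnSR100 and shGFP cells carried their hairpins stably and were kept under 2 ug/mL puromycin, and each group is represented by 1 file that combines 2 sequencing runs of different read length. The siU2af65, siPtbp1 and siCtrl cells received short interfering RNA pools and were harvested 48 hours later, with 1 library against U2af65, 1 against Ptbp1 and 2 with control siRNA, called siCtrl a and siCtrl b. The labels give siU2af65 the letter a and siPtbp1 the letter b. The hairpin files and the siRNA libraries differ in hairpin or siRNA, in selection and in duration, and these cannot be told apart where the hairpin files stand against the siRNA libraries. Totals ran between 60220620 and 77138004 reads in genes per file.

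nSR100, the protein of Srrm4, is a neuronal SR-related factor that promotes inclusion of short neuronal exons. Ptbp1 binds pyrimidine-rich RNA and represses many neuronal exons, and U2af65, the protein of U2af2, recognises the pyrimidine tract before the 3′ splice site. Reads were summed over whole genes and report transcript abundance and not exon inclusion. In bulk RNA, fewer cells of a type and less RNA per cell cannot be told apart.

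The targeted genes were low in the libraries labelled for them. Srrm4 had 2.50 RPKM (reads scaled by gene length and by the total of the file) in shnSR100, against 11.63 RPKM in shGFP. It had 12.03 RPKM in siU2af65 and 4.51 RPKM in siPtbp1, against 4.54 RPKM in siCtrl a and 8.37 RPKM in siCtrl b. U2af2 fell in siU2af65 by a log2 fold change of -2.67 (edgeR quasi-likelihood test, Benjamini-Hochberg adjusted p = 0.00468), and Ptbp1 changed by -4.18 in siPtbp1 (edgeR, adjusted p = 0.00242).

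Among genes with at least 1 RPKM in one hairpin file, 0.303% were at least 2-fold higher and 0.615% at least 2-fold lower in shnSR100 than in shGFP on the log2(RPKM + 1) scale, which understates the change of low genes. All 6 higher and all 4 lower genes of the set are past that line, as their selection requires. With the restriction, made after the values were seen, to the 11502 genes with at least 100 reads in one hairpin file, the set lay within ranks 1 to 30 by size of difference. Without it, 9 genes with fewer reads ranked above the first of the set, Serpinf1. The last place belonged to Nnat, with a difference of 1.19, and 20 other genes ranked above it. Of these others, 18 were lower in shnSR100, among them Srrm4 itself, Ache, Cacng3, Nppb, Car6 and Egr1. Just outside the set were Bak1 (1.19), Snap25 (-1.18) and Mycn (-1.18).

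**Figure D1:**
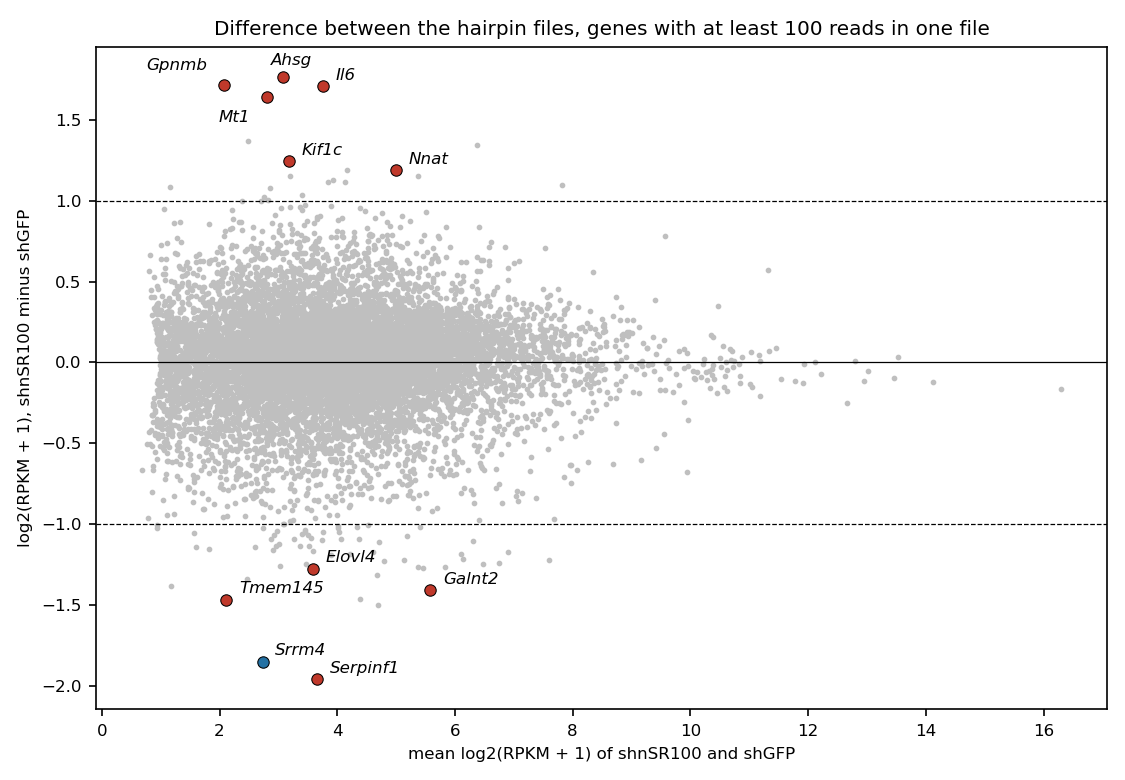
Each point is a gene with at least 100 reads in one hairpin file, with its mean log2(RPKM + 1) over shnSR100 and shGFP on the x axis and the difference, shnSR100 minus shGFP, on the y axis. Dashed lines mark a difference of 1, red points are the 10 genes, which lie between 1.19 and 1.96 from 0 in either direction, and the blue point is Srrm4 at -1.85.

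Ahsg, Gpnmb, Mt1 and Nnat were high in both hairpin files and near silent or low in the siRNA libraries. Ahsg encodes fetuin-A, a plasma glycoprotein made mainly by liver that binds calcium phosphate. It had 14.66 RPKM (1538 reads) in shnSR100, against 3.61 RPKM (310 reads) in shGFP. It had 7 reads in siU2af65 and 12 in siPtbp1, against 5 in siCtrl a and 3 in siCtrl b. The siRNA libraries thus held at most 0.12 RPKM of Ahsg, while both hairpin files were far above that.

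Gpnmb encodes a transmembrane glycoprotein of lysosomes and melanosomes. It had 6.63 RPKM (1823 reads) in shnSR100, against 1.32 RPKM (298 reads) in shGFP. It had 15 reads in siU2af65 and 6 in siPtbp1, against 4 in siCtrl a and 3 in siCtrl b. Its per-total ratio of reads between shnSR100 and shGFP, 5.01 (95% counting interval 4.43 to 5.68), was the largest of the 10 genes. Such intervals are exact binomial, treat reads as independent and cover counting error only.

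Mt1 encodes metallothionein 1, a small cysteine-rich protein that binds zinc and copper. It had 11.29 RPKM (408 reads) in shnSR100, against 2.94 RPKM (87 reads) in shGFP. It had 28 reads in siU2af65 and 2 in siPtbp1, against 18 in siCtrl a and 4 in siCtrl b. Both libraries with the letter a thus held more Mt1 reads than both with the letter b. Its neighbour Mt2, a second metallothionein gene, had 56 reads in shnSR100 and 13 in shGFP. Mt2 had 1 read in siU2af65 and 0 in siPtbp1, against 0 in siCtrl a and 4 in siCtrl b.

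Nnat encodes neuronatin, a small membrane protein of the endoplasmic reticulum, and is expressed from the paternal allele within an intron of Blcap. It had 47.4 RPKM in shnSR100, against 20.2 RPKM in shGFP. It had 2.84 RPKM in siU2af65 and 2.09 RPKM in siPtbp1, against 4.78 RPKM in siCtrl a and 3.0 RPKM in siCtrl b. Every siRNA library was below both hairpin files. Blcap did not share this order, with 35.23 RPKM in shnSR100, 36.37 RPKM in shGFP and between 32.43 and 47.67 RPKM in the siRNA libraries. How reads were assigned, and whether strand was used, is not given in the sources used here, so reads of genes that overlap, such as Nnat and Blcap, could be shared.

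Being higher in both hairpin files than in all 4 siRNA libraries was common, at 30.3% of the 12179 genes with at least 1 RPKM in a file, and 4 of the 10 genes showed it. The opposite order, both hairpin files below all 4 siRNA libraries, held for 14.3% of those genes and for none of the 10. A gap of at least 2-fold on the log2(RPKM + 1) scale between the lower hairpin file and the highest siRNA library, a count added after the 30.3% was seen, held for 2.59% of the genes and for the same 4, Ahsg, Gpnmb, Mt1 and Nnat. Selection on the hairpin contrast favours genes that are high in shnSR100, and both counts include that file.

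**Figure D2:**
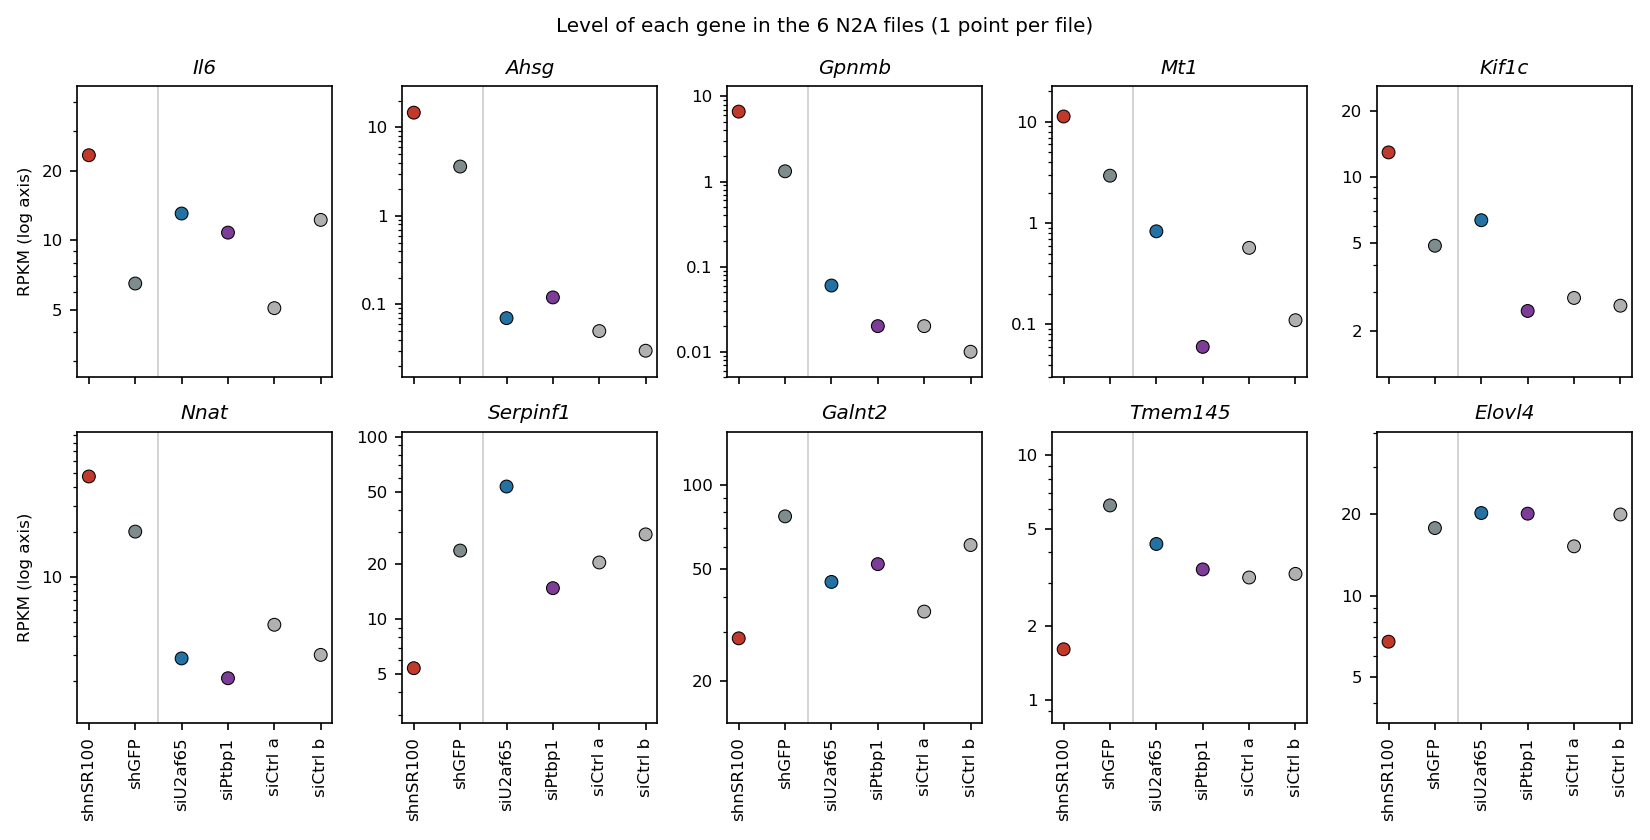
Each panel shows 1 gene, with RPKM on a log axis and 1 point for each of the 6 N2A files, hairpin files left of the grey line. Ahsg, Gpnmb, Mt1 and Nnat lie highest in both hairpin files, and Serpinf1, Galnt2, Tmem145 and Elovl4 lie lowest in shnSR100.

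Il6 and Kif1c were highest in shnSR100, but their shGFP levels lay inside the range of the siRNA libraries. Il6 encodes interleukin 6, a cytokine that signals through its receptor and gp130 and is induced by NF-kB. It had 23.48 RPKM (1794 reads) in shnSR100, against 6.50 RPKM (406 reads) in shGFP. It had 13.10 RPKM in siU2af65 and 10.82 RPKM in siPtbp1, against 5.08 RPKM in siCtrl a and 12.29 RPKM in siCtrl b. The control libraries therefore differed by 2.42-fold in reads per total (siCtrl b over siCtrl a, 95% counting interval 2.14 to 2.75), against 3.62-fold (3.24 to 4.04) between shnSR100 and shGFP.

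Kif1c encodes a kinesin-3 motor that carries cargo along microtubules. It had 12.93 RPKM (6286 reads) in shnSR100, against 4.88 RPKM (1940 reads) in shGFP. It had 6.37 RPKM in siU2af65 and 2.47 RPKM in siPtbp1, against 2.83 RPKM in siCtrl a and 2.61 RPKM in siCtrl b. The control libraries lay close together, and siU2af65 stood above both of them. The hairpin ratio was 2.65 (95% counting interval 2.52 to 2.79).

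Serpinf1, Galnt2, Tmem145 and Elovl4 were lowest in shnSR100 of all 6 files. Serpinf1 encodes PEDF, a secreted serpin without protease inhibition that is neurotrophic and antiangiogenic. It had 5.39 RPKM (707 reads) in shnSR100, against 23.83 RPKM (2559 reads) in shGFP. It had 53.54 RPKM in siU2af65 and 14.82 RPKM in siPtbp1, against 20.50 RPKM in siCtrl a and 29.24 RPKM in siCtrl b. The shGFP value lay between the control siRNA libraries, siU2af65 above them and siPtbp1 below them.

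Galnt2 encodes a Golgi transferase that starts mucin-type O-glycans. It had 28.43 RPKM in shnSR100, against 77.14 RPKM in shGFP. It had 45.11 RPKM in siU2af65 and 52.18 RPKM in siPtbp1, against 35.39 RPKM in siCtrl a and 61.01 RPKM in siCtrl b. Both knockdown libraries lay between the controls, whose reads per total differed 1.72-fold (siCtrl b over siCtrl a).

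Tmem145 encodes a multi-pass membrane protein with a GOLD domain. It had 1.61 RPKM (267 reads) in shnSR100, against 6.22 RPKM (842 reads) in shGFP. It had 4.33 RPKM in siU2af65 and 3.41 RPKM in siPtbp1, against 3.16 RPKM in siCtrl a and 3.27 RPKM in siCtrl b. Here shGFP was the highest of the 6 files.

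Elovl4 encodes an elongase of very long chain fatty acids, known from retina, brain and skin. It had 6.75 RPKM (1492 reads) in shnSR100, against 17.77 RPKM (3214 reads) in shGFP. It had 20.20 RPKM in siU2af65 and 20.09 RPKM in siPtbp1, against 15.21 RPKM in siCtrl a and 19.95 RPKM in siCtrl b. All 5 files other than shnSR100 lay together.

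With the mean of the control siRNA libraries in place of shGFP, 8 of the 10 genes were past 2-fold in the direction of their selection. This count reuses shnSR100, which selected them, and the share over all genes was not counted. Galnt2 then differed by -0.74 and Tmem145 by -0.69 on the log2(RPKM + 1) scale. Their shGFP levels were above both control siRNA libraries. Ahsg, Gpnmb, Mt1 and Nnat were past 2-fold in shGFP over siCtrl a too, by 2.13, 1.19, 1.33 and 1.87 on that scale. Galnt2, a gene lower in shnSR100, was also past it, by 1.10, but differed by 0.33 in shGFP over siCtrl b. The share of all genes past 2-fold in shGFP over siCtrl a was not counted. Being the highest of the 6 files in shnSR100 was seen for 25.4% of genes and for the 6 higher genes, and being the lowest for 12.2% of genes and for the 4 lower genes. Both shares rest on the contrast that selected the genes.

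The 4 siRNA libraries were not part of the contrast that selected the genes. Of the 10 genes, 7 passed the filter of a mean of at least 1 RPKM over these libraries, and Ahsg, Gpnmb and Mt1 did not. Serpinf1 rose after U2af65 knockdown, the opposite of its direction in shnSR100. It had 91.6 CPM (counts scaled to library size by TMM) in siU2af65, against 45.4 ± 8.64 CPM in siCtrl (SD, n = 2). The fitted log2 fold change was 1.01 (approximate SE 0.24, edgeR quasi-likelihood test, Benjamini-Hochberg adjusted p = 0.0420). It was the 1 call among the 7 tested genes, where 1.82% of all 11237 genes were called higher and 3.42% lower. Over the other settings its adjusted p lay between 3.42e-04 and 0.394. The call ended with a minimum mean of 5 RPKM (edgeR, adjusted p = 0.0639) and with shGFP added to the controls (edgeR, adjusted p = 0.394).

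Kif1c had 40.4 CPM in siU2af65, against 18.6 ± 2.14 CPM in siCtrl (SD, n = 2). Its log2 fold change was 1.12 (SE 0.28), in the direction of its selection, and missed the threshold (edgeR, adjusted p = 0.0513). DESeq2 called it (adjusted p = 0.0169), and over the settings its adjusted p lay between 0.00468 and 0.524. Il6 had a log2 fold change of 0.51 (SE 0.48, edgeR, adjusted p = 0.563), and it had 13.04 CPM in siU2af65, against 9.12 ± 4.90 CPM in siCtrl (SD, n = 2). Nnat had -0.57 (SE 0.52), Galnt2 -0.18 (SE 0.29), Tmem145 0.33 (SE 0.39) and Elovl4 0.11 (SE 0.23), none of them past the test. Against siCtrl b alone and siCtrl a alone the log2 ratio of CPM was 0.05 and 1.21 for Il6, -0.12 and -0.91 for Nnat, -0.48 and 0.19 for Galnt2, and -0.02 and 0.25 for Elovl4, so the directions of Galnt2 and Elovl4 turned with the control used.

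After Ptbp1 knockdown none of the 7 tested genes passed edgeR's test, against 0.0% of all genes called higher and 0.0267% called lower. At an unadjusted p under 0.05, 173 genes were higher and 308 lower, and Serpinf1 was the 1 of the 7 tested genes among them. In the edgeR fit of every gene with at least 1 read, which holds all 10, Nnat (unadjusted p = 0.0418) and Mt1 (unadjusted p = 0.0487) were also under 0.05, and neither passed after adjustment (adjusted p = 1.0 for both). Serpinf1 had 26.2 CPM in siPtbp1, against 45.4 ± 8.64 CPM in siCtrl (SD, n = 2), a log2 fold change of -0.79 (SE 0.25, edgeR, adjusted p = 0.895). DESeq2 called none of the 7 genes either. For the fit of every gene with at least 1 read, the share of all genes under that unadjusted line was not counted. Mt1 rests there on 2 reads in siPtbp1, against 18 in siCtrl a and 4 in siCtrl b. Nnat had a log2 fold change of -0.96 (SE 0.53), Il6 0.29 (SE 0.48), Kif1c -0.19 (SE 0.30), Galnt2 0.08 (SE 0.28), Tmem145 0.03 (SE 0.40) and Elovl4 0.15 (SE 0.23). Against siCtrl b alone and siCtrl a alone, Il6 had -0.17 and 0.98, Galnt2 -0.22 and 0.45, Nnat -0.51 and -1.31, Kif1c -0.07 and -0.31, and Elovl4 0.02 and 0.29, so the directions of Il6 and Galnt2 turned with the control used. With 1 library per knockdown and the spread taken from 2 controls, changes of this size were not separable from the spread between libraries. The labels do not say that the control libraries came from separate cultures, so the p-values rest on a spread that may be purely technical.

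**Figure D3:**
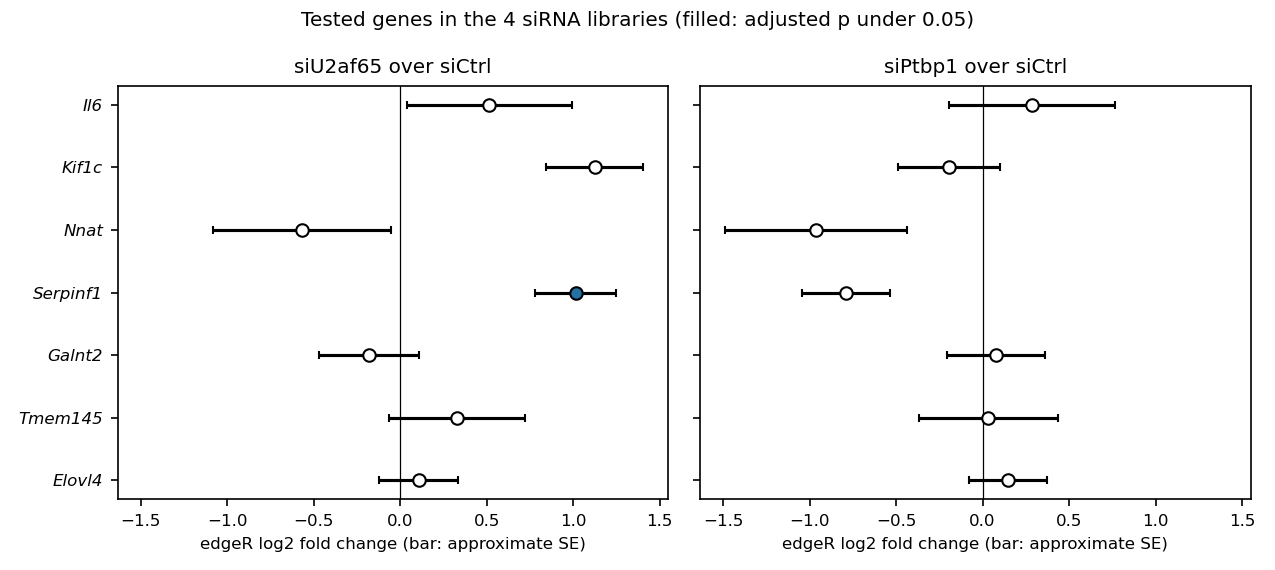
Points give edgeR's log2 fold change for the 7 tested genes, siU2af65 over siCtrl on the left and siPtbp1 over siCtrl on the right, with bars of 1 approximate SE. The filled point, Serpinf1 in siU2af65 at 1.01, is the 1 with an adjusted p under 0.05.

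Set against the control with the same letter, siU2af65 held at least 2-fold more Il6 and Serpinf1 than siCtrl a on the log2(RPKM + 1) scale, 2 of the 7 genes with at least 1 RPKM in either library. The share of all genes past that line was 7.14% higher and 2.9% lower. Il6 had a difference of 1.21 against siCtrl a and of 0.09 against siCtrl b, so its size depended on which control was used. Serpinf1 had 1.34 against siCtrl a and 0.85 against siCtrl b. Kif1c lay near the line against both controls, with 0.94 against siCtrl a and 1.03 against siCtrl b, and its reads per total were 2.25-fold those of siCtrl a (95% counting interval 2.11 to 2.41) and 2.44-fold those of siCtrl b (2.29 to 2.61). None of the 7 genes was past 2-fold between siPtbp1 and siCtrl b, where 0.194% of all genes were higher and 0.414% lower. Serpinf1 came nearest, with -0.93. Between the control libraries, siCtrl b over siCtrl a, Il6 was the 1 gene of 7 past 2-fold, with 1.13, where 0.758% of all genes were higher and 0.952% lower. The comparisons of siU2af65 and of siCtrl b with siCtrl a share siCtrl a.

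**Figure D4:**
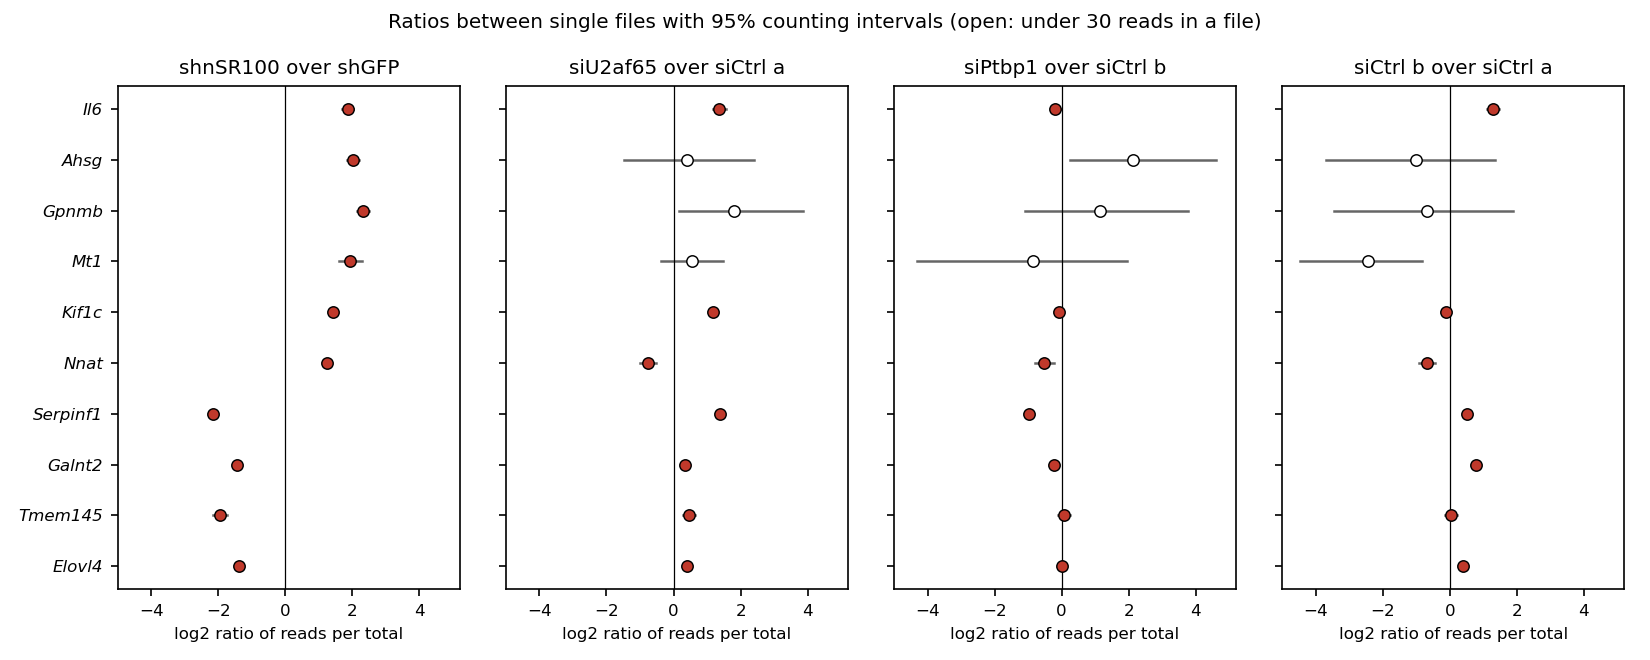
Each panel gives the log2 ratio of reads per file total between 2 files for the 10 genes, with 95% counting intervals. Open points rest on fewer than 30 reads in a file. Il6 lies to the right of 0 in siU2af65 over siCtrl a and in siCtrl b over siCtrl a.

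The gene whose profile lay nearest each of the 10 was found by Euclidean distance of centred log2(RPKM + 1) over the 6 files, among 11510 genes. For Serpinf1 the nearest gene was Srrm4, at a distance of 1.11, the largest of the distances given here. Both were lowest in shnSR100 and highest in siU2af65, with siCtrl b above siCtrl a. In shGFP, Srrm4 (11.63 RPKM) lay above both controls (4.54 and 8.37 RPKM), while Serpinf1 lay between them. In siPtbp1, Srrm4 (4.51 RPKM) lay near siCtrl a, while Serpinf1 lay below both controls. Bak1 lay nearest Kif1c (0.20), and Bak1 had 26.08 RPKM in shnSR100, 10.87 RPKM in shGFP and 14.21 RPKM in siU2af65, against 5.44 to 7.08 RPKM in the other libraries. Chga, a granin of secretory granules, lay nearest Tmem145 (0.25), and Phf21b nearest Galnt2 (0.43). Pf4 lay nearest Ahsg (0.77), and had 20.04 RPKM in shnSR100 and 8.72 RPKM in shGFP, against at most 0.46 RPKM in the siRNA libraries. Gen1 lay nearest Il6 (0.76), Gpnmb nearest Mt1 (0.73) and Ahsg nearest Nnat (0.82). The distances describe 6 files, are taken over values that include the selecting contrast, and carry no test. For Gpnmb the nearest was Gm7534 (0.67).

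Of 39 measured genes that lie within 2 places of the 10 in RefSeq's gene order, 30 had at least 1 RPKM in a hairpin file, and 1 of these was past 2-fold between the hairpin files on the log2(RPKM + 1) scale, beside 0.303% of all genes higher and 0.615% lower. Without the added 1, Mt2 and Vstm2l among the 30 (0.3 RPKM in shnSR100, against 1.01 RPKM in shGFP) also differed more than 2-fold. The 1 gene was Tyms, thymidylate synthase, beside Il6, with a difference of 1.13. Tyms had 21.46 RPKM in shnSR100, against 9.26 RPKM in shGFP. It had 23.16 RPKM in siU2af65 and 10.11 RPKM in siPtbp1, against 9.43 RPKM in siCtrl a and 12.20 RPKM in siCtrl b. Il6 and Tyms thus both stood high in shnSR100 and siU2af65, while Il6 was also high in siPtbp1 and siCtrl b.

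Stretches of promoter are shown for Il6, a gene with known inducible elements, and for Nnat, which was high in the same files as Mt1. Sequences are from RefSeq on GRCm38.p6, which had promoters for 9 of the 10 genes, and the 250 bases before each start were searched on both strands. Capitals mark the match.
Il6, NF-kB site, chr5:30013061-30013088 (+): atcaaatgtGGGATTTTCCcatgagtct
Il6, cAMP response element core, chr5:30012970-30012992 (+): gctaaacgaCGTCAcattgtgca
Nnat, metal response element core, chr2:157560048-157560072 (+): aagcgcgcaTGCGCACttaggtggc

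The NF-kB motif is found in 14.9% of 32851 promoters. The cAMP response element core was searched as TGACG, 5 letters that are a part and not the whole of the element, found in 17.8% of promoters. The Il6 match to it is on the other strand. The metal response element core was searched as TGCNCNC, found in 44.4%. In this window, which ends at the annotated start, Nnat had 4 matches to this loose form and Mt1 had 1. Mt2 had 5, a number that 0.34% of promoters reach. Ahsg, Kif1c and Elovl4, of which Elovl4 was lower in shnSR100, had 2 each, and Gpnmb, high in the same files as Mt1 and Nnat, had 0. Both Elovl4 matches read TGCCCAC on the strand of the match, which a form with a purine after TGC would not count. Nor would it count TGCCCAC in Ahsg, TGCCCGC in Kif1c, TGCCCGC in Nnat, or TGCTCTC and TGCTCCC in Mt2. The numbers given for Nnat, Mt2, Ahsg and Kif1c are thus those of the loose form only. The Nnat match shown and the Mt1 match would count. The Nnat match shown directly follows another on the other strand, without overlap. The Il6 promoter also matched the AP-1 site TGANTCA, as 6.7% of promoters do. Mt1 also matched the NF-kB motif, at letters that overlap a GC box (GGGCGG, in 32.7% of promoters). Matches of CANGTG, which takes in the E-box of MiT/TFE factors and other E-boxes, are in 39.5% of promoters. Serpinf1 had 2, CAAGTG and CACATG, which is CATGTG on the other strand. Mt1, with CACATG too, Tmem145, Elovl4 and Mt2 had 1 each, and Gpnmb had 0. In this window none of the 9 promoters held TATAAA, which 12.4% of promoters hold. Sequence past the annotated start was not searched, so elements of Mt1 or of other genes that lie there are not counted. These are matches of letters and no measure of binding.

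Genes that act with the 10 were followed as lists. Since 0.303% of all genes were past 2-fold higher and 0.615% lower between the hairpin files on the log2(RPKM + 1) scale, a count of 0 in any of these lists is near the share over all genes and shows nothing particular to the list. Hairpin counts in these lists cover genes with at least 1 RPKM in a hairpin file. Of the IL-6 family, its receptors and NF-kB targets, 0 of 20 such genes were past 2-fold between the hairpin files. Their median difference was -0.04 against 0.03 over all genes. After U2af65 knockdown edgeR called Stat3 (-1.12), the transcription factor downstream of gp130, and Nfkb2 (-1.54) and Nfkbia (-1.89), a subunit and an inhibitor of NF-kB, lower, among 13 tested. None of the 13 was called higher. Il6 itself was not called. In this and the following lists, rose and fell after U2af65 knockdown mean called by edgeR at an adjusted p under 0.05, with the log2 fold change in parentheses. Over all genes tested, edgeR called 1.82% higher and 3.42% lower in siU2af65, and no list was tested as a set. After Ptbp1 knockdown the 1 gene of these lists that edgeR called was Ptbp1.

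Among metallothioneins and zinc handling genes other than Mt1, 0 of 16 were past 2-fold between the hairpin files on that scale (median 0.13) and none of 15 was called higher after U2af65 knockdown. Mt2 is one of the 16, and with 1.5 RPKM in shnSR100, against 0.43 RPKM in shGFP, it stays under the line at 0.81 because 1 is added to both values. Of MiT/TFE factors and lysosome genes, which include known regulators of Gpnmb, 0 of 23 were past 2-fold between the hairpin files (median 0.18). Mitf rose after U2af65 knockdown (1.94), with 3.87 RPKM in siU2af65 against 0.67 RPKM in siCtrl a and 1.23 RPKM in siCtrl b. Gpnmb had 15 reads in that library.

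Of 16 imprinted genes other than Nnat, 1 was past 2-fold between the hairpin files, Peg10 (1.15). Peg10 had 61.01 RPKM in shnSR100, against 26.95 RPKM in shGFP. It had 49.44 RPKM in siU2af65 and 63.52 RPKM in siPtbp1, against 95.43 RPKM in siCtrl a and 70.67 RPKM in siCtrl b. Its shGFP value was the lowest of the 6 files, unlike that of Nnat. The order of Nnat, both hairpin files above all 4 siRNA libraries, was shared by 6 of 17 imprinted genes with at least 1 RPKM in a file (Mest, Igf2r, Dlk1, Cdkn1c, Phlda2 and Ascl2), near the 30.3% of all genes, a count added after the values were seen. Dlk1, a Notch ligand-like membrane protein, had 31.83 RPKM in shnSR100 and 25.45 RPKM in shGFP, against 4.27 to 8.74 RPKM in the siRNA libraries. Impact rose after U2af65 knockdown (1.18).

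Of 7 kinesin-3 motors and adaptors, none was past 2-fold between the hairpin files, and Kif14 fell after U2af65 knockdown (-1.28). Of 18 fatty acid elongation and very long chain lipid genes, none was past 2-fold between the hairpin files (median -0.19). Elovl5 (-1.17), Elovl7 (-1.34) and Tecr (-1.16), elongation enzymes like Elovl4, fell after U2af65 knockdown. They were 3 of 18 tested, beside 3.42% of all genes, with no set test. None of 6 serpins, 8 PEDF receptor and angiogenesis genes, 9 GalNAc transferases and O-glycan enzymes, or 6 GOLD-domain genes was past 2-fold between the hairpin files. The same held for 16 interferon-induced genes (median 0.09). It also held for Fetub, the 1 of 13 plasma protein genes other than Ahsg with at least 1 RPKM in a hairpin file. Fetub had 33.24 RPKM in shnSR100 and 24.80 RPKM in shGFP, against 12.68 to 26.91 RPKM in the siRNA libraries. Of 19 regulators linked to nSR100, Srrm4 and its relative Srrm3 (-1.03) were past 2-fold lower, and Mbnl1 fell after U2af65 knockdown (-1.01).

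Markers of other cell types were read beside these results. N2A neuroblast markers summed to 797 RPKM in shnSR100 and 1223 RPKM in shGFP, with Mycn (-1.18) and Chga (-1.24) past 2-fold lower, and to between 1008 and 1192 RPKM in the siRNA libraries. Liver markers summed to at most 0.25 RPKM in any file, with Alb and Fgb at 0 reads in all 6, beside 14.66 RPKM of Ahsg in shnSR100. Fibroblast markers followed the order of Ahsg, Gpnmb, Mt1 and Nnat, with 12.37 RPKM in shnSR100 and 7.41 RPKM in shGFP, against 0.42 to 0.84 RPKM in the siRNA libraries. Of the 7 fibroblast markers, 2 reached 1 RPKM, Dcn (5.70 RPKM in shnSR100, 3.99 RPKM in shGFP) and Pdgfra (5.82 RPKM in shnSR100, 2.74 RPKM in shGFP), while Col3a1 had 0 reads in both hairpin files. Their part in the levels of these 4 genes was not tested. Macrophage and microglia markers summed to 1.33 RPKM in shnSR100 and 1.38 RPKM in shGFP. In siU2af65, where Tyrobp rose (2.68), they summed to 3.92 RPKM, of which Tyrobp alone held 3.41 RPKM. Tyrobp was the 1 marker of this list that reached 1 RPKM in siU2af65. Melanocyte markers summed to 3.95 RPKM in shnSR100 and 3.85 RPKM in shGFP, and astrocyte and oligodendrocyte markers to 3.18 RPKM and 2.76 RPKM in those files.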

How the data were processed

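For every Ensembl gene the authors deposited its read count and its RPKM, without a header line. The submitters' processing notes name Bowtie, bedtools 2.17.0 and the mouse build mm9 but not what each was used for. The RPKM column holds text for 1114 genes. Symbols matched 20759 of 22667 identifiers. The 10 genes and all lists were chosen with earlier results of these data known.

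edgeR 4.0.16 (R 4.3.3, TMM, quasi-likelihood test, Benjamini-Hochberg threshold 0.05) was fitted to the counts of the 4 siRNA libraries over 11237 genes averaging at least 1 RPKM over them, with 1 residual degree of freedom and 8.65 prior degrees of freedom. SEs are approximate, from the fold change and the square root of its F. Alternatives were DESeq2 1.42.0, limma 3.58.1, library totals, 2 other filters, shGFP as a further control, another pseudocount and leaving out either control.

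Comparisons of 1 file with 1 file have no test. Genes named beside the 10 are the targeted genes, list members called by edgeR or past 2-fold between the hairpin files, neighbours past 2-fold, the nearest profile, and up to 6 others that rank above the last of the 10. Bak1, Snap25 and Mycn, Blcap, Mt2, Vstm2l, Fetub and the imprinted genes that share Nnat's order were added after values were seen. Crosslinking libraries and 293T files were not analysed here. The nearest profile to Elovl4 is not reported here.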

Additional observations from a re-analysis of the deposited data

How the results depend on the processing

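The number of genes called after U2af65 knockdown was 589 with edgeR (205 higher, 384 lower), 1045 with DESeq2, 1285 and 1261 with limma at pseudocounts of 1 and 0.1, 1158 with library totals (580 higher, 578 lower), 1649 without the filter, 257 at a minimum mean of 5 RPKM and 0 with shGFP added to the controls. limma also moved the split, to 655 higher and 630 lower at a pseudocount of 1, and to 617 and 644 at 0.1. The median of all genes moved to 0.11 at most. After Ptbp1 knockdown it was 3 with edgeR and 20, 99, 106, 86, 99, 1 and 0 under those settings in the same order. Of the 10 genes, 1 was called after U2af65 knockdown, 2 (Serpinf1 and Kif1c) with DESeq2, library totals or no filter, and 0 at the 5 RPKM minimum or after adding shGFP. The cause of these shifts was not tested. None was called after Ptbp1 knockdown in any setting. With shGFP added, Tmem145 turned to -0.01 in siU2af65 and to -0.30 in siPtbp1, and Galnt2 to -0.14 in siPtbp1. Without siCtrl a, Serpinf1 had 0.83 in siU2af65, and without siCtrl b 1.22, as values with no test. The directions of Galnt2 and Elovl4 in siU2af65 (-0.48 and 0.19, -0.02 and 0.25) and of Il6 and Galnt2 in siPtbp1 (-0.17 and 0.98, -0.22 and 0.45) turned with the control left out, and Tmem145 in siPtbp1 lay at 0.07 and -0.0. No paired analysis was possible because the hairpin runs are pooled in 1 file per group and each siRNA knockdown shares its letter with 1 control only. Ahsg, Gpnmb and Mt1 had 2 to 28 reads in each siRNA library, and were called in neither knockdown by edgeR without the filter. Between single libraries some counting intervals exclude 1, as for Mt1 in siPtbp1 over siCtrl a (0.102, 0.0114 to 0.424) and Gpnmb in siU2af65 over siCtrl a (3.50, 1.12 to 14.5).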
